A study of Mus musculus with 6 samples.

Results

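The genes of antigen presentation by the major histocompatibility complex (MHC) were taken from the count table as the protein-coding rows whose symbol starts with H2-, the prefix of the mouse MHC, together with B2m, Tap1, Tap2, Tapbp, Cd74, Ciita, Nlrc5, Psmb8, Psmb9 and Psmb10. The rule gave 44 of 54532 genes: 25 class I chain genes (24 heavy chains and B2m), 7 genes of class I peptide supply and control, 11 class II genes, and H2-Ke6, which encodes a steroid dehydrogenase and meets the rule by its symbol alone. The RNA was taken from the injured spinal cord of C57BL/6J mice. In 3 libraries the injured mice had walked on a turning rod (rotarod training), and in 3 the injured mice had no training; the labels place both groups at day 28, counted from training. The labels give no injury level, age, sex or uninjured group, and do not say whether a library is 1 mouse, so p-values measure the spread between libraries, which may be technical. Trained cord was compared with untrained cord, separately for class I and class II.

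Class I molecules, a heavy chain with beta-2 microglobulin, carry peptides cut from proteins inside the cell and show them to CD8 T cells; nearly all nucleated cells can make them. Class II molecules, an alpha and a beta chain, carry peptides of engulfed proteins to CD4 T cells and are made mainly by dendritic cells, B cells, macrophages and activated microglia. In the injured cord class II is best known from microglia and infiltrating or border macrophages. Interferon-gamma raises both classes, through the transactivators NLRC5 for class I and CIITA for class II, which are recruited to a shared promoter module read by RFX, CREB and NF-Y.

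That module is shown here because the 2 classes share it while their RNA levels differed in part of their pattern below. RefSeq promoter windows of GRCm38.p6, 250 bases before to 50 after a gene's start, were found for 37 of the 44 genes, some with more than 1 window. The genes without one were Cd74, Ciita, H2-Ab1, H2-Q1, H2-T24, Nlrc5 and Tap2. The lines below are 80 bases each, 5′ to 3′ on the gene's strand, with 2 motifs in capitals: TGANG, the core letters of the CREB-type site in the X region, and ATTGG, the inverted CCAAT box that NF-Y binds.
H2-Aa: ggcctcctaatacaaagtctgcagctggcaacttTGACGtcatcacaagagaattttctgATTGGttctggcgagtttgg
H2-Eb1: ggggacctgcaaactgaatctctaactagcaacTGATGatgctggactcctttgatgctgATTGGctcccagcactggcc
H2-DMb1: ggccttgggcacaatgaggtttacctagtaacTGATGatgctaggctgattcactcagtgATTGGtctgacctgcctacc
H2-Ob: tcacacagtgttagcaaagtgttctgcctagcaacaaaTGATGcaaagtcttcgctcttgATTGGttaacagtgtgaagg
B2m: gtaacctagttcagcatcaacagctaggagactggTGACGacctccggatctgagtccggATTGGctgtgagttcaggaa
H2-K1: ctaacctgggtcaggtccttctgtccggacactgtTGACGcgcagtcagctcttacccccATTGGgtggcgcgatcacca
H2-D1: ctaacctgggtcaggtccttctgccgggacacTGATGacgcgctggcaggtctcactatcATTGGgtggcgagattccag
They span chr17:34287852-34287931 (minus strand) for H2-Aa, chr17:34305748-34305827 (plus) for H2-Eb1, chr17:34153070-34153149 (plus) for H2-DMb1, chr17:34238788-34238867 (plus) for H2-Ob, chr2:122147574-122147653 (plus) for B2m, chr17:34000344-34000423 (minus) for H2-K1 and chr17:35262958-35263037 (plus) for H2-D1. TGANG followed 5 to 40 bases later by ATTGG on the gene's strand, a pattern chosen after the windows were seen, was present in 5 of 8 windows of class II genes that entered the test, 9 of 11 of class I and 0 of 5 of the class I supply genes. It was present in 3.79% of all 32851 windows; the 2 motifs of a match do not overlap. ATTGG alone, on either strand, was in 37.4% of all windows. A match is a string of letters and does not show binding.

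The 6 libraries held 15814104 to 26092014 counts, and 16909 genes were tested. Neuron, oligodendrocyte and astrocyte markers were abundant in all of them, as the tissue label says. Trained replicate 1 stood apart: Prx, which encodes periaxin of Schwann cell myelin, was at 0.581 CPM there (read counts scaled to a common library size), against 99.7 and 48.2 CPM in trained replicates 2 and 3 and 46.0 to 81.4 CPM in the untrained libraries. Results are therefore given with and without it. Of all genes tested with edgeR (quasi-likelihood, p-values adjusted by Benjamini-Hochberg over all genes), 10 of 16909 (0.0591%) passed the threshold of 0.05, 0.00591% as higher and 0.0532% as lower in trained cord. Of the 29 presentation genes that entered the test 0 were among them. At an unadjusted p below 0.05 in edgeR, 1 of the 29 (H2-DMb1) was lower, against 5.55% of all genes, and 0 were higher, against 4.47% of all genes. DESeq2 called 0 of the 28 that it gave an adjusted p, against 0.532% of all genes. In bulk tissue, fewer cells of a type and less RNA per cell cannot be told apart.

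**Figure D1:**
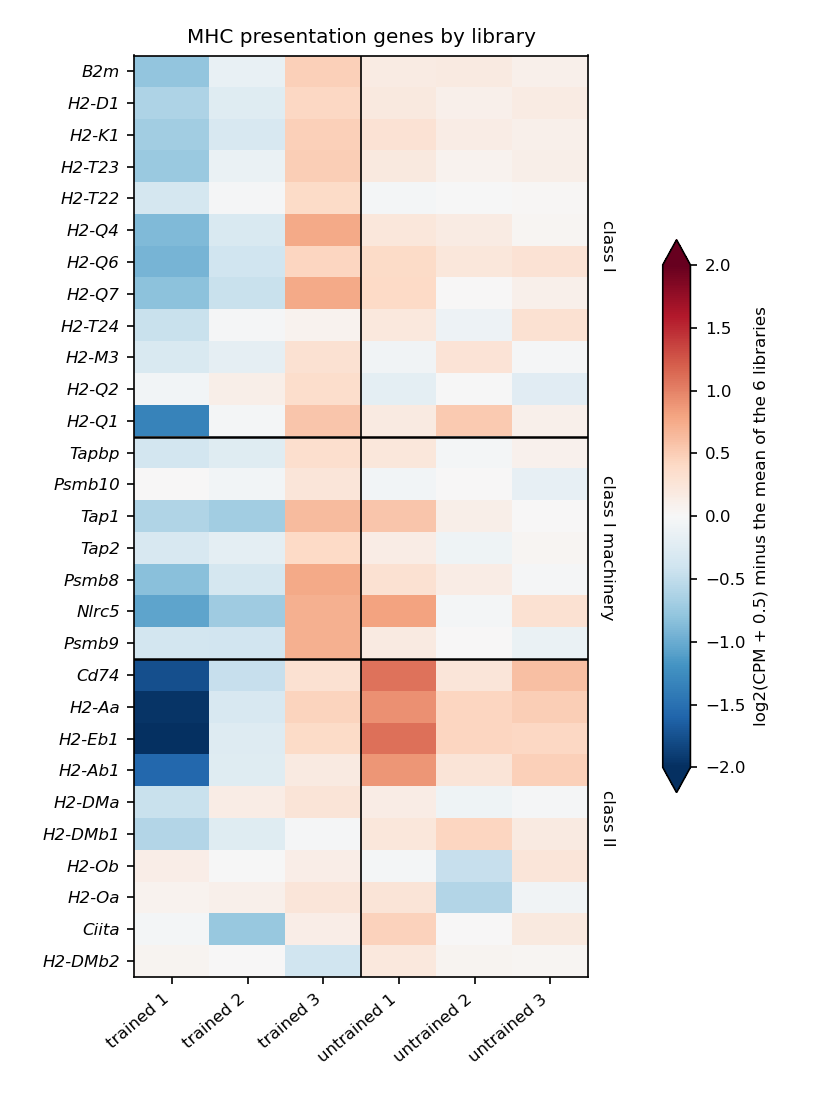
Level of each tested gene (rows, grouped by class) in each library (columns, trained left of untrained), as log2(CPM + 0.5) minus the gene's mean over the 6 libraries. Trained replicate 1 had the lowest value in 11 of 12 class I genes, trained replicate 3 had the highest in 11 of 12, and Cd74, H2-Aa, H2-Eb1 and H2-Ab1 had their highest values in untrained replicate 1.

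In class II, the antigen-binding chains and the invariant chain had lower means in trained than in untrained cord, 35.1 ± 22.2 against 75.1 ± 22.4 CPM for Cd74 (SD, n = 3 each), and no class II gene passed the test: 0 of 10 rose and 0 fell, with edgeR adjusted p-values of 0.324 to 0.991. Their median log2 fold change (trained over untrained) was -0.57, beside -0.0080 for all genes tested, and 8 of 10 had a negative value, against 52.0% of all genes. In 3 of 10 (H2-Ab1, H2-Eb1 and H2-DMb1) every trained library lay below every untrained one, against 8.69% of all genes tested with that order. Library values are in the order of replicates 1, 2 and 3, and gene positions are those of the count table, read as GRCm38.

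Cd74 (ENSMUSG00000024610, chromosome 18, bases 60803848 to 60812646) encodes the invariant chain that guides class II molecules to the endosome. It was at 13.5, 33.8 and 57.8 CPM in trained cord, against 99.4, 55.3 and 70.8 CPM in untrained cord. Only trained replicate 3 reached the untrained range, and it lay just above the lowest untrained library. The log2 fold change was -1.12 ± 0.62 (SE; edgeR adjusted p = 0.627), and -0.72 without trained replicate 1.

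H2-Aa and H2-Ab1 encode the alpha and beta chains of I-A, the class II molecule that C57BL/6 mice display. H2-Aa (ENSMUSG00000036594, chromosome 17, bases 34282744 to 34287827) was at 3.68, 12.5 and 21.7 CPM in trained and 30.2, 21.5 and 22.5 CPM in untrained cord. H2-Ab1 (ENSMUSG00000073421, chromosome 17, bases 34263209 to 34269418) was at 4.30, 11.5 and 15.6 CPM in trained and 25.8, 16.6 and 19.2 CPM in untrained cord. The groups overlapped narrowly for the alpha chain and did not for the beta chain. The log2 fold changes were -1.003 ± 0.68 for H2-Aa (edgeR adjusted p = 0.696) and -1.0005 ± 0.52 for H2-Ab1 (edgeR adjusted p = 0.605); without trained replicate 1 they were -0.53 and -0.60.

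H2-Eb1 (ENSMUSG00000060586, chromosome 17, bases 34305877 to 34316199) encodes the beta chain of I-E, which this strain does not display because its alpha chain gene is inactive; the table lists that gene as the pseudogene H2-Ea-ps, with 0 counts in all 6 libraries. H2-Eb1 RNA was at 2.79, 11.0 and 17.4 CPM in trained and 29.3, 18.1 and 17.9 CPM in untrained cord. The groups did not overlap, but trained replicate 3 was close to untrained replicates 2 and 3. The log2 fold change was -1.10 ± 0.72 (SE; edgeR adjusted p = 0.683), and -0.62 without trained replicate 1. H2-Eb2, a second E beta gene, had 13 counts over all libraries and was not tested.

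**Figure D2:**
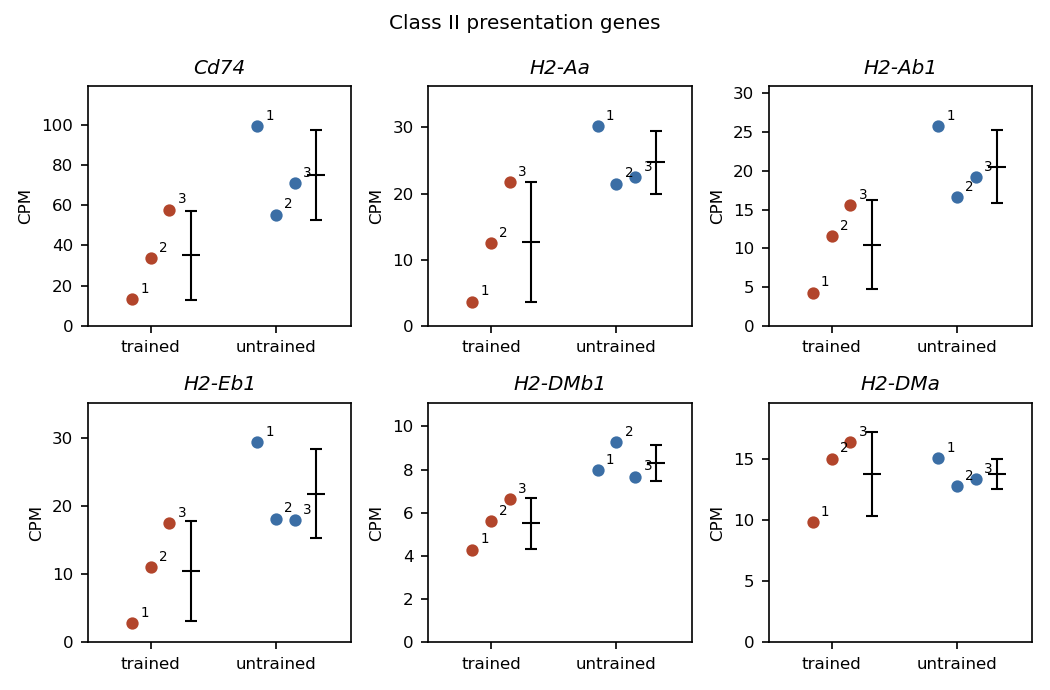
CPM of 6 class II genes, trained left and untrained right; each point is a library labelled with its replicate number, and the black bar is the mean ± SD (n = 3 per group). Trained libraries ran from 13.5 to 57.8 CPM of Cd74 and untrained ones from 55.3 to 99.4 CPM, while H2-DMa averaged 13.7 CPM in both groups.

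The 3 chain genes varied less relative to Cd74 than Cd74 itself varied. As a percent of Cd74 CPM, not corrected for gene length, H2-Ab1 was at 31.9%, 34.1% and 26.9% in trained and 25.9%, 30.0% and 27.2% in untrained libraries. H2-Aa was at 27.3%, 37.0% and 37.6% in trained and 30.4%, 38.9% and 31.8% in untrained libraries. Over a range of 13.5 to 99.4 CPM of Cd74 these proportions changed by 1.32-fold (H2-Ab1), 1.43-fold (H2-Aa) and 1.59-fold (H2-Eb1), with overlapping groups.

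The peptide editor H2-DM exchanges the invariant chain remnant for other peptides. H2-DMa (ENSMUSG00000037649) was at 9.84, 15.01 and 16.3 CPM in trained and 15.1, 12.7 and 13.4 CPM in untrained cord. Its trained libraries lay on both sides of the untrained ones (log2 fold change -0.011 ± 0.18; edgeR adjusted p = 0.991), and the sign turned to 0.19 without trained replicate 1 and to 0.016 with upper-quartile scaling.

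H2-DMb1 (ENSMUSG00000079547), a beta chain gene, was at 4.30, 5.62 and 6.64 CPM in trained and 7.97, 9.25 and 7.67 CPM in untrained cord. All 3 trained libraries were lower. Its log2 fold change of -0.60 ± 0.19 had the smallest p of the 29 genes (edgeR unadjusted p = 0.00743, adjusted p = 0.324), and was -0.44 without trained replicate 1. The close copy H2-DMb2 had 81 counts over all libraries and a log2 fold change of -0.32 ± 0.40 (edgeR adjusted p = 0.825). Of the 150-base windows of H2-DMb1 transcripts 5.74% occur in H2-DMb2 letter for letter, so reads may have been divided between them. Set against the alpha chain, H2-DMb1 was at 43.7%, 37.4% and 40.7% of H2-DMa CPM in trained libraries and 52.9%, 72.6% and 57.4% in untrained ones, with no overlap. That ratio was chosen after the values were seen, its difference was not tested, and 1.92% of all genes had trained libraries below untrained ones relative to H2-DMa.

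H2-O restrains H2-DM, mainly in B cells. H2-Oa was at 1.82, 1.85 and 2.11 CPM in trained and 2.13, 0.961 and 1.597 CPM in untrained cord. H2-Ob was at 2.17, 1.91 and 2.17 CPM in trained and 1.86, 1.26 and 2.36 CPM in untrained cord. Both had positive log2 fold changes, 0.29 ± 0.32 and 0.19 ± 0.29 (edgeR adjusted p = 0.806 and 0.869), and in neither was trained replicate 1 the lowest library. Without untrained replicate 2 the value of H2-Ob was -0.011.

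Ciita (ENSMUSG00000022504), the class II transactivator, was at 1.43, 0.679 and 1.68 CPM in trained and 2.24, 1.502 and 1.79 CPM in untrained cord. The groups overlapped, and the lowest library was trained replicate 2, not trained replicate 1 as for the chains. Its log2 fold change was -0.54 ± 0.35 (edgeR adjusted p = 0.644), -0.65 without trained replicate 1 and -0.26 without trained replicate 2. Its 169 counts are uncertain, since its span overlaps Dexi, a neighbour with 8680 counts, and use of strand in the counting is not given in the sources used here.

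In class I the genes did not separate the groups: 0 of 12 tested rose and 0 fell (edgeR adjusted p = 0.621 to 0.975), the median log2 fold change was -0.21, and the groups overlapped in all 12, against 16.8% of all genes with groups that did not. In most of them what varied was the trained group itself, which spread on both sides of 3 closely placed untrained libraries. As exceptions, no trained library of H2-T24 lay above the untrained range, and none of H2-Q2 lay below it. In 12 of 12 genes trained replicate 1 was below 2 and 2 below 3, an order that 21.2% of all genes tested had. Trained replicate 1 was the lowest of the 6 libraries in 11 of 12, against 18.7% of all genes tested, and trained replicate 3 the highest in 11 of 12, against 21.2%. Trained replicate 3 lay above every untrained library in 11 of 12, as in 30.0% of all genes. The order was not limited to class I: 7 of 10 class II genes also had trained replicate 1 below 2 and 2 below 3. In class II, however, trained replicate 3 lay above every untrained library in 1 of 10.

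B2m (ENSMUSG00000060802, chromosome 2, bases 122147686 to 122153083), the light chain of every class I molecule, was at 245, 383 and 589 CPM in trained and 471, 480.0 and 454 CPM in untrained cord. The trained mean was 406 ± 174 and the untrained mean 468 ± 13.3 CPM (SD, n = 3 each). The log2 fold change was -0.21 ± 0.35 (edgeR adjusted p = 0.890), and it turned to 0.053 without trained replicate 1.

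The classical heavy chains H2-D1 and H2-K1, which present peptides to CD8 T cells, followed the same order. H2-D1 (ENSMUSG00000073411, chromosome 17, bases 35262730 to 35267499) was at 244, 316 and 499 CPM in trained and 429, 405 and 419 CPM in untrained cord. H2-K1 (ENSMUSG00000061232, chromosome 17, bases 33996017 to 34000333) was at 111, 145 and 252 CPM in trained and 220, 199 and 193 CPM in untrained cord. Their log2 fold changes were -0.24 ± 0.28 and -0.27 ± 0.34 (edgeR adjusted p = 0.826 and 0.838), and -0.034 and -0.044 without trained replicate 1. Per kilobase of gene length the mean levels over the 6 libraries were 508 CPM for B2m, 149 CPM for H2-D1 and 71.6 CPM for H2-K1, against 39.1 CPM for Cd74 and 9.47 to 13.6 CPM for the H2-A and H2-E chains.

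**Figure D3:**
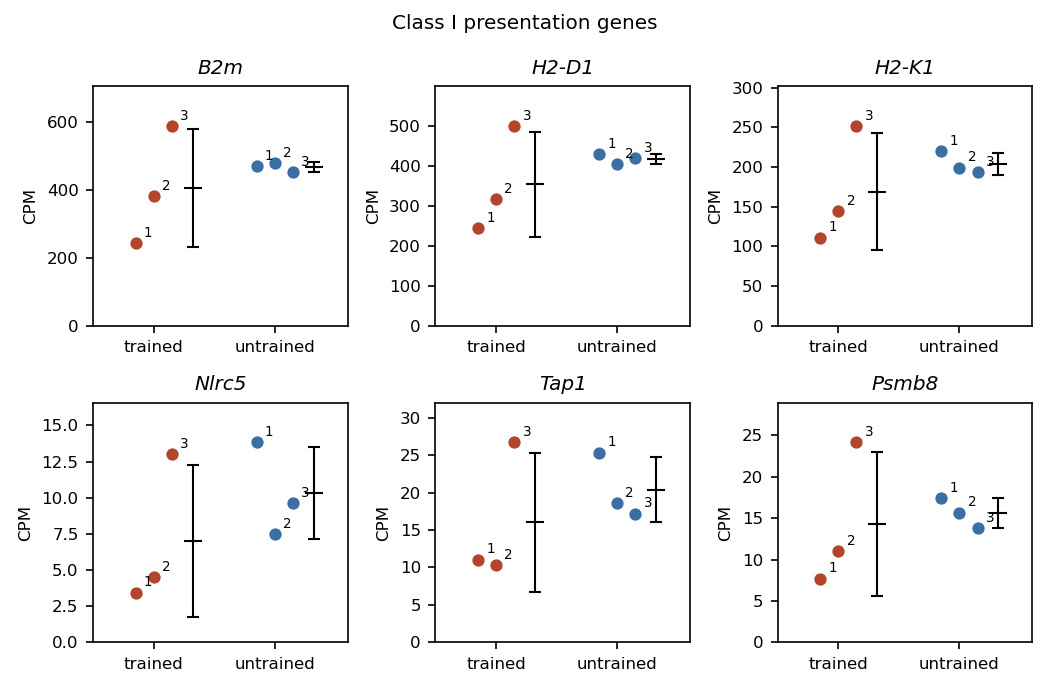
CPM of 3 class I chain genes and 3 supply genes, trained left and untrained right; points are libraries labelled with their replicate number, and black bars are the mean ± SD (n = 3 per group). Trained replicates 1 and 2 were below the lowest untrained library in each, and trained replicate 3 was above the highest except in Nlrc5, at 13.03 against 13.8 CPM.

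Among the non-classical heavy chains, H2-T23 encodes Qa-1, the ligand of the NKG2 receptors of NK and CD8 T cells. It was at 26.1, 39.9 and 62.1 CPM in trained and 50.1, 46.1 and 47.9 CPM in untrained cord. H2-T22, bound by some gamma-delta T cells, was at 30.5, 38.3 and 50.8 CPM in trained and 38.1, 38.9 and 39.8 CPM in untrained cord. Both showed the order of the classical chains, with log2 fold changes of -0.18 ± 0.35 and 0.028 ± 0.17 (edgeR adjusted p = 0.905 and 0.975); limma-voom turned H2-T22 to -0.024. H2-T24 was at 6.23, 8.46 and 9.06 CPM in trained and 10.1, 7.99 and 10.9 CPM in untrained cord. H2-M3, which presents formylated peptides of bacteria and mitochondria, was at 6.70, 7.41 and 10.5 CPM in trained and 7.97, 10.3 and 8.24 CPM in untrained cord. These 2 varied less among the trained libraries than H2-K1 did (SDs of 1.49 and 2.01 CPM on means of 7.92 and 8.20 CPM).

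The Q region holds close copies, and their values are uncertain for that reason. H2-Q7 and H2-Q6, which encode Qa-2 molecules, shared 8.31% and 5.99% of their 150-base transcript windows with other genes, mainly each other. H2-Q6 was at 6.54, 9.70 and 17.7 CPM in trained and 17.0, 15.3 and 15.9 CPM in untrained cord, and H2-Q7 was at 4.88, 6.48 and 15.6 CPM in trained and 12.1, 9.07 and 9.78 CPM in untrained cord. H2-Q4 was at 14.8, 22.5 and 47.7 CPM in trained and 32.6, 31.3 and 28.6 CPM in untrained cord. All 3 repeated the order of the classical chains. H2-Q2 was at 1.86, 2.16 and 2.61 CPM in trained and 1.64, 1.92 and 1.597 CPM in untrained cord, with a positive log2 fold change (0.35 ± 0.27; edgeR adjusted p = 0.708). H2-Q1 was at 0.155, 1.11 and 1.92 CPM in trained and 1.37, 1.86 and 1.28 CPM in untrained cord. Among the genes just named the edgeR adjusted p-values were at least 0.621.

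The other 13 class I genes did not enter the test. H2-M5, H2-Q10, H2-M10.2, H2-M2, H2-M1 and H2-T3 had 2 to 39 counts over all libraries. H2-M9, H2-M11, H2-M10.1, H2-M10.3, H2-M10.4, H2-M10.5 and H2-M10.6, of which the M10 genes are known from vomeronasal neurons, had 0 counts in all 6 libraries, where 3 counts correspond to 0.116 to 0.192 CPM. H2-Ke6 had 11 counts.

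Of the class I peptide supply genes, which cover transport, loading, the immunoproteasome and control, 0 of 7 rose and 0 fell (edgeR adjusted p = 0.644 to 0.975), with a median log2 fold change of -0.15 and overlapping groups in all 7. Trained replicate 3 lay above every untrained library in 6 of 7, and trained replicates 1 and 2 both lay below every untrained library in 6 of 7, against 17.6% of all genes.

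Nlrc5 (ENSMUSG00000074151, chromosome 8, bases 94434356 to 94527272), the class I transactivator, was at 3.45, 4.51 and 13.03 CPM in trained and 13.8, 7.51 and 9.65 CPM in untrained cord. It had the widest trained spread relative to its mean among the supply genes, 6.996 ± 5.26 CPM against 10.3 ± 3.21 CPM (SD, n = 3 each). The log2 fold change was -0.59 ± 0.61 (edgeR adjusted p = 0.806), and -0.24 without trained replicate 1.

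Tap1 and Tap2 form the pump that moves peptides into the endoplasmic reticulum. Tap1 was at 11.0, 10.3 and 26.7 CPM in trained and 25.3, 18.6 and 17.2 CPM in untrained cord. Tap2 was at 13.7, 15.01 and 23.0 CPM in trained and 19.2, 16.3 and 17.8 CPM in untrained cord. In both, trained replicates 1 and 2 were low and replicate 3 was near or above the untrained libraries (log2 fold changes of -0.36 ± 0.46 and -0.053 ± 0.18; edgeR adjusted p = 0.840 and 0.9504). Tapbp encodes tapasin, which bridges the pump to class I, and was at 60.7, 66.5 and 99.0 CPM in trained and 91.6, 76.2 and 83.6 CPM in untrained cord; its span overlaps Zbtb22 on the same strand.

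Psmb8, Psmb9 and Psmb10 encode the subunits that replace the standard catalytic ones in the immunoproteasome. Psmb8 was at 7.71, 11.0 and 24.1 CPM in trained and 17.4, 15.7 and 13.8 CPM in untrained cord. Psmb9, whose span overlaps Tap1 on the other strand, was at 5.73, 5.62 and 12.5 CPM in trained and 8.52, 7.51 and 6.84 CPM in untrained cord. Psmb10 was at 43.5, 41.8 and 51.4 CPM in trained and 41.6, 43.7 and 38.6 CPM in untrained cord, with a log2 fold change of 0.14 ± 0.09 (SE; edgeR adjusted p = 0.644). In all 3 trained replicate 3 was the highest of the 6 libraries.

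**Figure D4:**
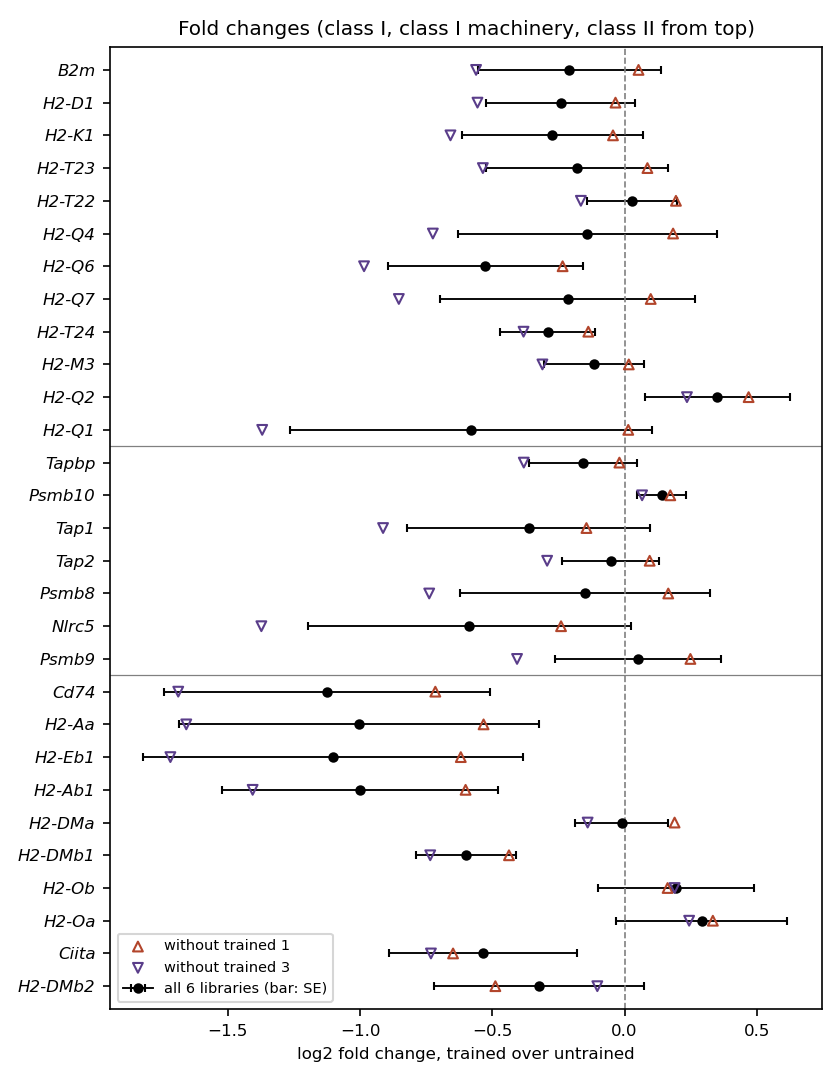
Log2 fold change of each tested gene, trained over untrained, with all 6 libraries (black, bar is the SE) and without trained replicate 1 or 3 (triangles). Without trained replicate 1 the class I values lay on both sides of 0 (median 0.034, from -0.23 for H2-Q6 to 0.47 for H2-Q2). Class II values did so too. Cd74, H2-Aa, H2-Eb1, H2-Ab1 and H2-DMb1 stayed at or below -0.44, and H2-DMa, H2-Oa and H2-Ob were at 0.19, 0.33 and 0.16.

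Both classes depended on single libraries, and class II and the supply genes on an untrained one as well. Without untrained replicate 1 the log2 fold changes of Cd74, H2-Aa and H2-Eb1 were -0.86, -0.82 and -0.82, and the class II median was -0.49. In that fit Tap1 and Nlrc5 were at -0.17 and -0.31 (-0.36 and -0.59 with all libraries). Tap2 turned to 0.016, and the supply median was -0.057 (-0.15 with all libraries). Without trained replicate 1 the log2 fold changes of Cd74, H2-Aa and H2-Eb1 were -0.72, -0.53 and -0.62 (-1.12, -1.003 and -1.10 with it), and those of B2m, H2-D1 and H2-K1 were 0.053, -0.034 and -0.044 (-0.21, -0.24 and -0.27 with it). Without trained replicate 1 the median log2 fold change was 0.034 for class I, 0.095 for class I supply and -0.51 for class II, with 0 genes called in each, against 0.122% of all genes in that fit. Without trained replicate 3, 8 of the 29 passed in edgeR and all 8 fell, against 1.29% of all genes in that fit: H2-D1, H2-K1, H2-Q6 and H2-Q7 of class I, and Tap1, Tapbp, Psmb8 and Nlrc5 of the supply genes. There H2-D1 had a log2 fold change of -0.56 ± 0.10 (edgeR adjusted p = 0.0194) and Tap1 of -0.91 ± 0.16 (0.0200 as the adjusted p). Each library was left out in turn, and trained replicate 3 was the highest in 11 of 12 class I and 6 of 7 supply genes. Leaving it out lowers their trained means by construction, so these calls show dependence on that library and are no evidence of a fall. No class II gene passed in that fit, although the fold changes were larger (Cd74 at -1.69 ± 0.58, edgeR adjusted p = 0.366); its 2 trained libraries there were at 13.5 and 33.8 CPM.

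Of the 10 class II genes tested, 4 were also lower in trained cord relative to B2m in the same library, and the other 6 overlapped. This comparison was chosen after the values were seen and has no test. As a percent of B2m CPM, not corrected for length, Cd74 was at 5.51%, 8.84% and 9.81% in trained and 21.1%, 11.5% and 15.6% in untrained libraries. H2-Aa was at 1.504%, 3.27% and 3.69% in trained and 6.41%, 4.48% and 4.95% in untrained libraries. H2-Ab1 was at 1.76%, 3.02% and 2.64% in trained and 5.47%, 3.45% and 4.24% in untrained libraries, and H2-Eb1 was lower in every trained library too. For these 4 genes all 3 trained libraries lay below all untrained ones, and trained replicate 1 was the lowest. Of all 16909 genes 76 (0.449%) had that order relative to B2m, 5 of the 29 presentation genes among them, the other being H2-Q6. On CPM alone the share of all genes was 8.69%. B2m was itself lowest in trained replicate 1, at 245 CPM, which raises every ratio in that library. It was highest in trained replicate 3, at 589 CPM, which lowers every ratio there. By CPM alone the groups of Cd74 and H2-Aa overlapped, and trained replicate 3 was the trained library that reached the untrained range. The low share therefore comes in part from the choice of B2m, and the 5 of 29 are no support for a difference. H2-D1 was at 99.95%, 82.6% and 84.7% of B2m in trained and 90.9%, 84.3% and 92.3% in untrained libraries, and the groups overlapped. Relative to Csf1r, the receptor gene of microglia and macrophages, Cd74 was at 7.49%, 18.0% and 23.9% in trained and 38.3%, 27.3% and 30.5% in untrained libraries, an order that 1.06% of all genes had. Csf1r itself was at 180, 188 and 242 CPM in trained and 260, 203 and 232 CPM in untrained cord. This ratio too was chosen after the values were seen and has no test, so that share is no support for a difference.

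**Figure D5:**
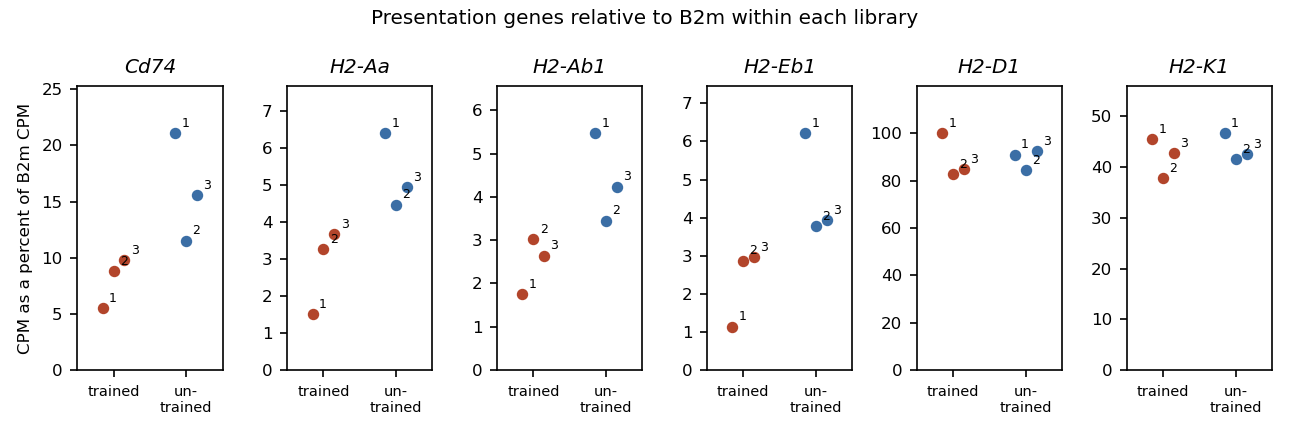
CPM of 4 class II genes and 2 class I heavy chains as a percent of B2m CPM in the same library, trained left and untrained right, each point a library labelled with its replicate number. Trained libraries were at 5.51 to 9.81% for Cd74, below the untrained 11.5 to 21.1%, and the groups overlapped for H2-D1 and H2-K1.

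Markers of cells that carry class II, and of other blood cells, varied in the same libraries, and their part in these results was not tested. Summed over 9 macrophage and monocyte markers the level was 22.3 to 45.2 CPM in trained and 34.3 to 51.2 CPM in untrained libraries, and 8 of 9 were lowest in trained replicate 1. The 8 microglia markers summed to 628 to 794 CPM in trained and 738 to 874 CPM in untrained libraries, with 5 of 8 lowest in trained replicate 1. Dendritic cell markers summed to 47.1 to 61.4 CPM in trained and 60.3 to 71.4 CPM in untrained libraries (4 of 7 lowest in trained replicate 1). B cell markers were low, at 2.13 to 2.53 CPM in trained and 1.79 to 6.23 CPM in untrained libraries, the highest in untrained replicate 1, which also had the most Cd74. The 6 neutrophil markers summed to 30.6 to 64.3 CPM in trained and 14.6 to 22.1 CPM in untrained libraries, with a median log2 fold change of 1.46. Of them 6 of 6 were higher at an unadjusted edgeR p below 0.05, against 4.47% of all genes, and 0 of 6 passed after adjustment. They mark 1 cell type in the same 6 libraries and are not separate results. The 5 red blood cell markers summed to 61.1 to 145 CPM in trained and 36.6 to 67.8 CPM in untrained libraries (median log2 fold change 0.93, 0 of 5 passed). The Schwann cell gene Prx was near 0 in trained replicate 1 alone, as given above. With that library left out the log2 fold change of Cd74 was -0.72 (edgeR adjusted p = 0.738). A link between the Prx and Cd74 levels was not tested. No marker of these lists was at 0 in all 6 libraries.

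Genes that act around MHC molecules were read from lists of related genes. Of the peptide loading and trimming genes 0 of 11 rose and 0 fell (median log2 fold change 0.011). Canx, a chaperone of new heavy chains, was at 386, 387 and 363 CPM in trained and 400.1, 439 and 442 CPM in untrained cord (edgeR adjusted p = 0.474). Of the 9 class II peptide processing genes tested 0 rose and 0 fell (median -0.096). Sppl2a, a protease that clears the last fragment of the invariant chain, was at 55.3, 62.2 and 60.3 CPM in trained and 66.9, 65.1 and 69.1 CPM in untrained cord. Its groups did not overlap (log2 fold change -0.18 ± 0.07; edgeR adjusted p = 0.444). Ctss, the cathepsin that cuts the invariant chain, was at 267, 328 and 486 CPM in trained and 458, 463 and 433 CPM in untrained cord. Its trained libraries had the order seen in class I and in 7 of 10 class II genes.

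Of 12 transcription factors of the MHC promoters 0 rose and 0 fell (median -0.040). Creb1, which binds the X region, was at 38.7 to 41.2 CPM in trained and 42.9 to 47.5 CPM in untrained cord (log2 fold change -0.19 ± 0.08; edgeR adjusted p = 0.446). Rfxank, a subunit of the RFX complex, had a log2 fold change of 0.32 ± 0.14 (edgeR adjusted p = 0.493). Irf4, a factor of lymphocytes and dendritic cells, was at 0.387, 0.371 and 0.310 CPM in trained and 0.710, 0.781 and 0.703 CPM in untrained cord (edgeR adjusted p = 0.468).

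Of the interferon-gamma signalling genes 0 of 14 rose and 0 fell, with a median of -0.17 and 12 of 14 negative. Jak2, a kinase of the interferon-gamma receptor, was at 41.3, 43.1 and 40.9 CPM in trained and 53.4, 56.1 and 45.9 CPM in untrained cord. Its groups did not overlap (log2 fold change -0.31 ± 0.09; edgeR adjusted p = 0.268). Ifng itself was at most 0.180 CPM in any library, at or below its floor of 3 counts.

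On the T cell side 0 of 8 tested genes rose and 0 fell (median -0.17). Cd8a, the co-receptor for class I, was at 0.271, 0.803 and 0.993 CPM in trained and 2.13, 1.62 and 1.98 CPM in untrained cord. All trained libraries were lower (log2 fold change -1.54 ± 0.42; edgeR unadjusted p = 0.00304, adjusted p = 0.268), and the value was -1.09 without trained replicate 1. The 6 T cell markers summed to 2.25 to 6.14 CPM in trained and 4.21 to 6.45 CPM in untrained libraries. Of the other presenting molecules, such as Cd1d1 and Mr1, 0 of 6 rose and 0 fell (median -0.11), with the NKG2D ligand gene Ulbp1 at a log2 fold change of -1.10 ± 0.44 (edgeR adjusted p = 0.430).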

How the data were processed

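Total RNA was sequenced as 150-base paired-end reads, per the labels' protocols. The table that the authors deposited holds unnormalized counts of reads for each Ensembl gene, with symbols, coordinates and gene lengths. Bowtie 0.12.2, mm8 and mm9 are named by the submitters' processing notes, without saying what each was for. For counting, annotation and strand, the method is not given in the sources used here. All 44 members were found in GENCODE M21 of GRCm38, 33 with the same chromosome, start and end.

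The test was run on the counts in R 4.3.3 with edgeR 4.0.16 (TMM, filterByExpr, robust quasi-likelihood fit, group as the only term, Benjamini-Hochberg threshold 0.05), and the step was tested on simulated data. CPM values are scaled by TMM factors; an SE is the log2 fold change over the square root of F. Other settings tried were DESeq2 1.42.0, limma-voom (limma 3.58.1), scaling by upper quartile or RLE, other filters, a replicate block, a threshold of 0.1 and leaving out each library. Libraries of 1 group differed beyond sampling noise (chi-square per gene of 5.89 to 19.8).

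Members and lists were chosen with earlier results of these data known. Per-library values are given for members tested with a mean of at least 1 CPM, 28 in all, and for up to 3 genes of smallest p per related list; Ctss, Ifng, Prx and ratios were chosen after their values were seen. Near-copies were found as identical 150-base windows of GENCODE transcripts. March1 and March8, listed under date-like names, were matched by gene ID. Intervals of counting error are not given, and floors of 3 counts cover counting error only.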

Additional observations from a re-analysis of the deposited data

How the results depend on the processing

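The count of 10 genes over the whole table was 90 with DESeq2, 276 with no filter on low counts, 5 with the replicate block, 18 at a threshold of 0.1 and 4 to 221 when each library was left out; the cause was not tested. Class I and class I supply genes called were 0 in every other fit and 0 to 4 each when libraries were left out, the 4 without trained replicate 3; class II genes called were 0 in every fit run. The medians for class I, class I supply and class II ran from -0.56 to 0.034, -0.41 to 0.095 and -0.73 to -0.49 when libraries were left out.

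Psmb9 turned to -0.098 with limma-voom and -0.039 with the replicate block, H2-T22 to -0.024 with limma-voom and H2-DMa to 0.016 with upper-quartile scaling. With libraries left out the log2 fold changes ran from -0.56 to 0.053 for B2m, -0.54 to 0.086 for H2-T23, -0.72 to 0.18 for H2-Q4, -0.85 to 0.099 for H2-Q7, -0.31 to 0.016 for H2-M3, -1.37 to 0.014 for H2-Q1, -0.17 to 0.19 for H2-T22, -0.29 to 0.095 for Tap2, -0.74 to 0.17 for Psmb8, -0.41 to 0.25 for Psmb9, -0.14 to 0.19 for H2-DMa and -0.011 to 0.42 for H2-Ob. Those of Cd74, H2-Aa, H2-Ab1, H2-Eb1, H2-DMb1 and Ciita stayed negative in every fit. So did those of H2-D1, H2-K1, H2-Q6 and H2-T24 of class I, and of Nlrc5, Tap1 and Tapbp of the supply genes.

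Replicate numbers did not pair the libraries: deviations from the group means correlated at -0.23, -0.077 and -0.17 between same-numbered libraries across genes. The block changed no call among the members.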

Other observations

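Rows with the H2- prefix but another biotype lie outside the rule. H2-Bl, a polymorphic pseudogene of the T region, had 3.33, 3.77 and 1.99 CPM in trained cord (replicates in order), against 1.53, 1.32 and 1.79 CPM in untrained cord. Its groups did not overlap (log2 fold change 0.97 ± 0.30, edgeR unadjusted p = 0.00599, adjusted p = 0.321). In contrast to the protein-coding class I genes, its lowest trained library was replicate 3. H2-K2, an unprocessed pseudogene, was at 2.94, 3.03 and 5.34 CPM in trained and 3.22, 2.40 and 1.98 CPM in untrained cord (edgeR adjusted p = 0.540). H2-Q5 was at 0.852, 1.42 and 3.54 CPM in trained and 2.18, 2.34 and 2.17 CPM in untrained cord, the order of its neighbours H2-Q4, H2-Q6 and H2-Q7.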
